A study of Mus musculus with 6 samples.

Results

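The 8 genes described here encode regulators and enzymes of sterol and fatty acid synthesis. They were chosen by symbol: Srebf1, Srebf2, Insig1, Hmgcs1, Sqle, Fasn, Scd1 and Acaca, each of which had 1 row among the 54532 genes of the table. All 8 passed the filter of a mean of at least 0.1 FPKM (fragments per kilobase of gene length, scaled between libraries by the authors), as did 18035 genes in all. Heart RNA was compared between 3 wild-type (WT) mice and 3 littermates homozygous for a deletion of Mc4r (Mc4r KO), the melanocortin-4 receptor, at 12 weeks of age. All animals came from heterozygous matings on a C57B/6/N background and gave 1 library each. The deletion was present in the whole animal, so that an effect within the heart and an effect of the altered body state could not be told apart. The labels call the tissue heart, though the sample titles say muscle, and the study also speaks of the left ventricle. The comparison asked how the heart's transcripts differed in early adulthood when the receptor was absent.

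Sterol regulatory element-binding proteins are transcription factors made as precursors in the membrane of the endoplasmic reticulum. When sterols are low, the escort protein Scap carries them to the Golgi, where proteases release the active part; when sterols are high, the Insig proteins hold Scap and its cargo back. The product of Srebf2 mainly drives genes of cholesterol synthesis and uptake, and the product of Srebf1 mainly drives genes of fatty acid synthesis. Srebf1 is also a target gene of the liver X receptors (LXR), which sense oxidised sterols. The adult heart takes up most of its fatty acids from the blood and makes few of its own.

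The reads counted on genes, recovered from the FPKM, numbered 14767929, 14888500 and 16047003 for the WT mice (replicates 1 to 3, the order used throughout). For the Mc4r KO mice they numbered 14691076, 15535174 and 15649074. The share of the summed FPKM that came from the mitochondrial chromosome was 59.3%, 57.4% and 47.1% in WT and 43.6%, 46.6% and 43.0% in Mc4r KO, so that WT replicate 3 lay nearer to the Mc4r KO libraries than the other WT libraries did. This library also stood apart in the test across all genes, where the number of genes called went from 83 with all 6 libraries to 726 without it. Log2 fold changes of the 8 genes are therefore also given without it. Mc4r itself had 0, 0 and 2 reads in WT and 0 in every Mc4r KO heart, under the floor of 3 reads set for detection, and gave no check of the genotype in this tissue. Markers of cardiomyocytes were abundant in every library, with Actc1, cardiac actin, as the highest. The labels named no batch.

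The windows before the start sites of 4 of the genes are shown because Srebf1, Srebf2 and Insig1 had the clearest separation between the groups and because Hmgcs1 held the one match to the sterol regulatory element core. Promoter sequences from RefSeq (GRCm38.p6) were found for 6 of the 8 genes, as 8 windows of 250 bases before a start site. Sqle and Scd1 had no entry. Each sequence is written 5′ to 3′ on the strand of its gene, and capitals mark matches on either strand to the motifs searched. These were TCACCCCAC and TCACNCCAC (the core of the sterol regulatory element, the first contained in the second), CCAAT (the box bound by NF-Y, written ATTGG where the match is on the opposite strand) and CACGTG (an E-box). Neighbouring CCAAT matches may overlap. The Srebf1 window is the one nearest to the 3′ end of the gene among 3 annotated, and the Srebf2 and Insig1 windows are shown up to the first annotated exon. Of the other Srebf1 windows, the middle one held no match and the farthest held CCAAT from 166 to 162 bases before its start site. The FPKM cover the whole gene, so the difference in Srebf1 could not be assigned to a single start site.
Srebf1, chr11:60210472-60210721, minus strand: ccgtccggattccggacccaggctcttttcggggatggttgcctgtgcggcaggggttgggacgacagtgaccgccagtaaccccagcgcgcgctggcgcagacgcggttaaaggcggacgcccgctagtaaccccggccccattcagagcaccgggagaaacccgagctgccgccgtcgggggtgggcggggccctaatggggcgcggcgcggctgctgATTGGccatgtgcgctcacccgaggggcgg
Srebf2, chr15:82147019-82147180, plus strand: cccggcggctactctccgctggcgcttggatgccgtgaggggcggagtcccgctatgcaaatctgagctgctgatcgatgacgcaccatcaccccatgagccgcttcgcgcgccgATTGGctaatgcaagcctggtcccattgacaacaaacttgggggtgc
Insig1, chr5:28071162-28071362, plus strand: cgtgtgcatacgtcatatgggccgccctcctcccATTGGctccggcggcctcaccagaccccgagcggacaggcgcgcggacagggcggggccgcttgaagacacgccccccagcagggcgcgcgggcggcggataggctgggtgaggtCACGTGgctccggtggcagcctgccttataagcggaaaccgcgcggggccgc
Hmgcs1, chr13:119690101-119690350, plus strand: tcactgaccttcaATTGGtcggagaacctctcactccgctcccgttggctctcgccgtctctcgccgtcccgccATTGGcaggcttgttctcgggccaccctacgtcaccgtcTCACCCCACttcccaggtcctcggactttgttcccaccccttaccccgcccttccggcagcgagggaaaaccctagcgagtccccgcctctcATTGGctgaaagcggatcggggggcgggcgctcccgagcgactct

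TCACCCCAC was found in the Hmgcs1 window, from 137 to 129 bases before the start site, and in no window of the other 5 genes. It was present in 0.496% of the 32851 promoter windows of the same length, and TCACNCCAC in 1.05%. CCAAT was found in 6 of the 8 windows (of Srebf1, Srebf2, Insig1, Hmgcs1 and Fasn), against 33.8% of all windows. Hmgcs1 and Fasn each held 3 CCAAT matches. The only Acaca window held none of the 4 motifs, but its start site (84195438) lay inside the gene, which begins at 84129672. The bases before the beginning of Acaca were not searched. CACGTG was found in the Insig1 window, from 101 to 96 bases before the start site, and in 6.02% of all windows. These matches describe letters in short windows and were not measured for binding.

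No gene among the 8 passed the threshold of the test, an adjusted p under 0.05 with an absolute log2 fold change above 0.75 in limma with Benjamini-Hochberg adjustment over all genes tested. The share of all genes that passed was 0.46%, with 57 genes (0.316%) higher and 26 (0.144%) lower in Mc4r KO. Without the limit on the fold change no gene among the 8 passed either, and 0.582% of all genes did. At an unadjusted p under 0.05, 1 of the 8 was higher in Mc4r KO (Srebf1) and 2 were lower (Srebf2 and Insig1), where 12% and 8.83% of all genes lay in these directions. The FPKM of the groups did not overlap for 1 gene in the higher direction and 3 in the lower, against 14.1% and 12.4% of all genes. The 2 regulators thus stood on opposite sides. The median log2 fold change of the 8 was -0.23, and that of all genes tested was -0.01.

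**Figure D1:**
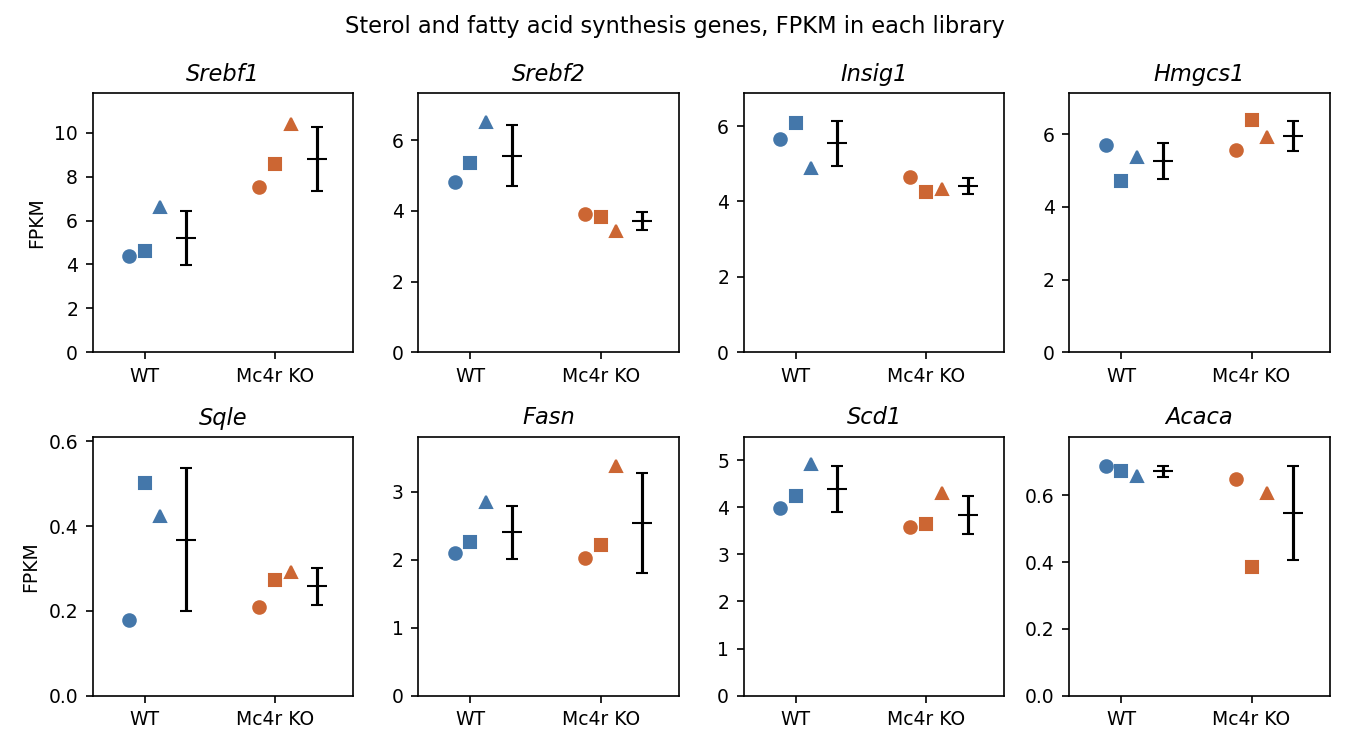
FPKM of the 8 genes in each library (y axis, linear from 0), with WT in blue and Mc4r KO in orange. Circles, squares and triangles are replicates 1, 2 and 3, and the black marks give the mean ± SD of 3 libraries. Srebf1 lay between 4.41 and 6.62 FPKM in WT and between 7.51 and 10.4 in Mc4r KO, while Srebf2 lay between 4.82 and 6.51 in WT and between 3.43 and 3.90 in Mc4r KO.

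Srebf1 (ENSMUSG00000020538, chr11:60199089-60222581) encodes the factor that mainly drives fatty acid synthesis. Its level was 4.41, 4.60 and 6.62 FPKM in WT and 7.51, 8.56 and 10.4 FPKM in Mc4r KO. The groups did not overlap, and WT replicate 3 was the WT library nearest to them. The mean was 5.21 ± 1.23 FPKM in WT and 8.83 ± 1.46 in Mc4r KO (SD, n = 3 each), a ratio of 1.69. The log2 fold change was 0.76 (SE 0.19, 95% interval 0.32 to 1.20), with an adjusted p of 0.101 in limma. Without WT replicate 3 it was 0.94 with an adjusted p of 0.0195, which passed the threshold, as did 4.04% of all genes in that fit. WT replicate 3 was the nearest WT library, so leaving it out had to widen the difference. That library was also singled out in part by its effect on the number of calls. Srebf1 passed also with array weights (0.85, adjusted p = 0.0377, 2.42% of all genes called) and in limma voom on the recovered reads (0.76, adjusted p = 0.0336, 1.76% called). It passed in none of the other alternative settings. Over all 20 of them its adjusted p in limma ranged from 0.0195 to 0.281. When a single library other than WT replicate 3 was left out, it was from 0.184 to 0.281. The mitochondrial share was lower in the Mc4r KO libraries, as given above, and its part in the difference of Srebf1 was not tested. When each library was instead scaled to its summed FPKM without that chromosome (the non-mitochondrial sum), the log2 fold change of Srebf1 was 0.57. The median of all genes was -0.19 in that fit. That scaling moved all genes together, and relative to the median of all genes Srebf1 was at 0.76, against 0.77 before.

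Srebf2 (ENSMUSG00000022463, chr15:82147181-82205379) encodes the factor that mainly drives cholesterol synthesis and uptake. Its level was 4.82, 5.35 and 6.51 FPKM in WT and 3.90, 3.82 and 3.43 FPKM in Mc4r KO. All 3 Mc4r KO values were under all 3 WT values, and WT replicate 3 was the farthest from them. The mean was 5.56 ± 0.86 FPKM in WT and 3.72 ± 0.25 in Mc4r KO, a ratio of 0.669. The log2 fold change was -0.56 (SE 0.13, 95% interval -0.88 to -0.24), with an adjusted p of 0.0992 in limma. It was -0.44 without WT replicate 3. Relative to the median of all genes it was -0.55, and -0.56 with scaling to the non-mitochondrial sum. The adjusted p was 0.0469 with array weights and 0.0365 in limma voom, where the fold change stayed under the limit of 0.75. It was under 0.05 in these 2 alone of the 20 alternative settings, and the highest was 0.271 in limma.

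The ratio of Srebf1 to Srebf2 within a library does not depend on the scaling between libraries. It is given as a description, since it was chosen after the values were seen and must separate the groups when its 2 genes do so in opposite directions. The ratio was 0.915, 0.859 and 1.02 in WT and 1.93, 2.24 and 3.03 in Mc4r KO. The log2 ratio differed by 1.34 between the groups. In WT replicate 3 both genes were at their highest WT level, and their ratio was close to that of the other WT libraries.

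**Figure D2:**
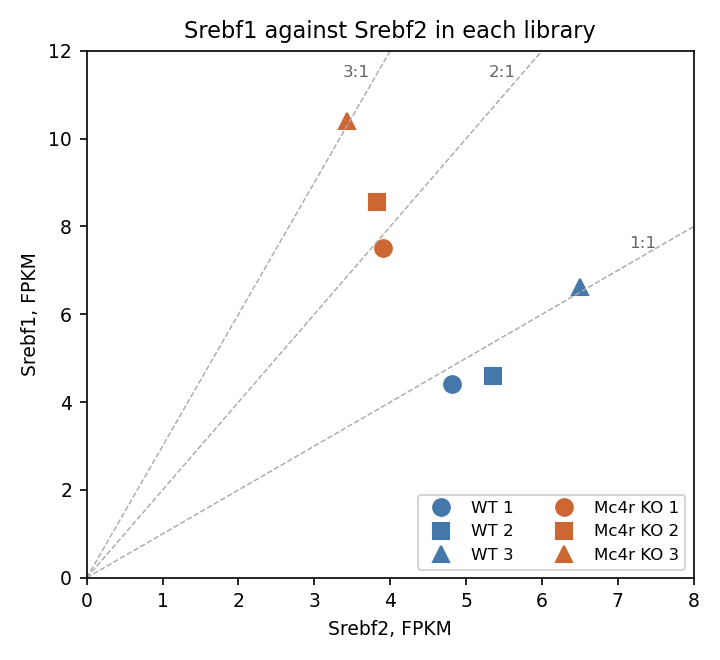
Srebf1 (y axis, FPKM) against Srebf2 (x axis, FPKM) in each of the 6 libraries, with WT in blue, Mc4r KO in orange and a marker shape for each replicate. Dashed lines mark equal ratios of Srebf1 to Srebf2. The WT libraries lay at ratios from 0.859 to 1.02 and the Mc4r KO libraries at 1.93 to 3.03.

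Insig1 (ENSMUSG00000045294, chr5:28071363-28078662) encodes one of the sterol-dependent anchors of Scap and is itself a well-known target gene of these factors. Its level was 5.66, 6.08 and 4.90 FPKM in WT and 4.64, 4.26 and 4.33 FPKM in Mc4r KO. The groups did not overlap, and the gap between WT replicate 3 and Mc4r KO replicate 1 was small. In limma this was a log2 fold change of -0.32 (SE 0.11), with an adjusted p of 0.178, and -0.40 without WT replicate 3. Insig2, the second anchor, whose transcript is less dependent on these factors, was at 15.1, 12.5 and 14.1 FPKM in WT and 15.7, 16.5 and 16.5 FPKM in Mc4r KO. It lay higher in every Mc4r KO library than in every WT library, with a log2 fold change of 0.23 (SE 0.09, adjusted p = 0.23 in limma). With quantile normalization the log2 fold change of Insig2 was 0.12. The ratio of Insig1 to Insig2, chosen after the values were seen, was 0.376, 0.486 and 0.348 in WT and 0.296, 0.258 and 0.262 in Mc4r KO, and is likewise a description. Insig2 was thus the more abundant of the pair per length in all 6 libraries.

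For both enzymes of the sterol branch the groups overlapped. Hmgcs1 (ENSMUSG00000093930, chr13:119690379-119708260) encodes the synthase that makes HMG-CoA, an early step of the mevalonate pathway. It was at 5.71, 4.71 and 5.37 FPKM in WT and 5.55, 6.39 and 5.92 FPKM in Mc4r KO, and the groups overlapped. Its log2 fold change was 0.18 (SE 0.11, 95% interval -0.09 to 0.44, adjusted p = 0.414 in limma). It was 0.19 without WT replicate 3 and 0.10 without WT replicate 2. With scaling to the non-mitochondrial sum it was 0.17 above the median of all genes, against 0.19 before. In its exons, 12.1% of the bases lay under the opposite-strand gene Gm48342 and 11.6% of its words of 50 bases were shared with other genes, so that some of its reads are uncertain.

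Sqle (ENSMUSG00000022351, chr15:59315077-59331192) encodes squalene epoxidase, which adds the first oxygen on the way to the sterol ring. It was the weakest of the 8, at 0.179, 0.502 and 0.423 FPKM in WT and 0.209, 0.273 and 0.292 FPKM in Mc4r KO. These values rest on 14, 40 and 40 reads in WT and 18, 23 and 26 reads in Mc4r KO. The groups overlapped through WT replicate 1, which was the lowest of the 6. A log2 fold change of -0.32 had a wide 95% interval, from -1.18 to 0.54 (adjusted p = 0.657 in limma). It was -0.66, -0.10 and -0.20 without WT replicates 1, 2 and 3, so that its size depended on single WT libraries.

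None of the 3 enzymes of the fatty acid branch passed the test. Fasn (ENSMUSG00000025153, chr11:120805846-120824547), fatty acid synthase, was at 2.11, 2.26 and 2.85 FPKM in WT and 2.02, 2.21 and 3.38 FPKM in Mc4r KO. The groups overlapped fully, with replicate 3 the highest of each. Limma gave a log2 fold change of 0.05 (SE 0.22, 95% interval -0.46 to 0.56, adjusted p = 0.921). It was 0.17 without WT replicate 3 and ranged from -0.16 to 0.19 over the fits that left out 1 library, and its sign turned without WT replicate 1 (-0.04) and without Mc4r KO replicate 3 (-0.16). With scaling to the non-mitochondrial sum it was 0.05 above the median of all genes, against 0.06 before.

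Scd1 (ENSMUSG00000037071, chr19:44394451-44407709) encodes a desaturase that makes monounsaturated fatty acids. It was at 3.97, 4.25 and 4.92 FPKM in WT and 3.57, 3.63 and 4.30 FPKM in Mc4r KO, and the groups overlapped. Its log2 fold change was -0.19 (SE 0.13, 95% interval -0.49 to 0.11, adjusted p = 0.455 in limma) and -0.10 without WT replicate 3. Of its words of 50 bases, 4.56% were shared with 4 other genes, among them its neighbours Scd2, Scd3 and Scd4, between which reads could be split.

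Acaca (ENSMUSG00000020532, chr11:84129672-84401651), the acetyl-CoA carboxylase that makes malonyl-CoA for fatty acid synthesis, was at 0.690, 0.673 and 0.657 FPKM in WT and 0.649, 0.386 and 0.606 FPKM in Mc4r KO. The groups did not overlap, but the gap between the lowest WT library and the highest Mc4r KO library was 0.657 against 0.649 FPKM, and Mc4r KO replicate 2 accounted for much of the spread. The log2 fold change was -0.28 (SE 0.23, adjusted p = 0.534 in limma). It was -0.09 without Mc4r KO replicate 2 and -0.30 without WT replicate 3. Words shared with other genes made up 30.4% of this long transcript. Acacb, the carboxylase of the mitochondrial surface that controls fatty acid entry, was far more abundant per length, at 36.4 ± 3.86 FPKM in WT and 40.1 ± 5.60 in Mc4r KO (SD, n = 3 each).

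The order of the levels per length differed between the groups. In WT, Srebf2 (mean 5.56 FPKM), Insig1 (5.55), Hmgcs1 (5.26), Srebf1 (5.21) and Scd1 (4.38) had overlapping ranges of values, and neighbours in this order were not separated beyond their spread. Fasn (2.41), Acaca (0.673) and Sqle (0.368) followed, each with a range apart from its neighbours. In Mc4r KO, Srebf1 was first (8.83) and Hmgcs1 second (5.95), with ranges apart from each other and from the next. Insig1 (4.41), Scd1 (3.84) and Srebf2 (3.72) followed, and each overlapped its neighbour in this run. Fasn (2.54), Acaca (0.547) and Sqle (0.258) came last, again with separate ranges. By mean FPKM over the 6 libraries, Srebf1 was above 76.2% of the genes tested and Sqle above 19.9%.

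Markers of other cell types were measured in the same libraries, because a change in the mix of cells can move a transcript in whole tissue, and fewer cells of a type and less RNA per cell cannot be told apart here. Fat cells were of interest since they express these enzymes at high levels. Of 10 adipocyte markers, 6 were under a mean of 0.1 FPKM over the 6 libraries and were not tested (Adipoq, Plin1, Cidec, Lep, Retn and Pck1), and Lep and Retn were listed at 0 in every library. The summed FPKM of the list was 124, 142 and 98.3 in WT and 142, 140 and 131 in Mc4r KO, most of it from Fabp4, which endothelial cells also express. The groups overlapped (exact permutation test, two-sided p = 0.4, where 3 mice against 3 cannot give less than 0.1). Lipe, the hormone-sensitive lipase also active in heart muscle, was at 6.03 ± 0.85 FPKM in WT and 9.33 ± 1.04 in Mc4r KO (adjusted p = 0.0871 in limma), Adig at 0.576 ± 0.590 and 1.11 ± 0.243, and Cfd at 0.596 ± 0.224 and 0.070 ± 0.121 (SD, n = 3 each). Lipe was higher and Cfd lower in every Mc4r KO library than in every WT library, beside 14.1% and 12.4% of all genes tested. Cfd had at most 11 reads in a library. Fabp4 and Adig overlapped.

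Of the 5 brown adipocyte markers, Ucp1 and Elovl3 were at 0 in every library. Dio2 was at 0.241 ± 0.048 FPKM in WT and 0.369 ± 0.172 in Mc4r KO, Cidea at 14.2 ± 1.86 and 24.2 ± 4.23, and Cox8b, the most abundant, at 832 ± 254 and 1144 ± 69.6 (SD, n = 3 each). The last 2 are also expressed in mouse heart muscle. Cidea was higher in every Mc4r KO library than in every WT library (log2 fold change 0.76, adjusted p = 0.0792 in limma), while Dio2 and Cox8b overlapped. The list summed to 809, 612 and 1117 FPKM in WT and 1086, 1189 and 1229 in Mc4r KO.

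The summed cardiomyocyte markers were 12112, 12372 and 11844 FPKM in WT and 14433, 15938 and 15213 in Mc4r KO, and the summed fibroblast markers, led by Dcn (decorin), were 193, 200 and 199 FPKM in WT and 161, 144 and 140 in Mc4r KO. Both sums separated the groups, in opposite directions (exact permutation test, two-sided p = 0.1 each, adjusted p = 0.36 over 9 lists). Much of each difference in FPKM came from the most abundant gene, and other genes of each list also separated the groups. Actc1 was at 5178 ± 528 FPKM in WT and 7539 ± 666 in Mc4r KO (SD, n = 3 each), and of the 7 cardiomyocyte markers Ryr2 (log2 fold change 0.42) and Myl2 (0.13) were also higher in every Mc4r KO library. Myh6 (0.25), Tnnt2 (0.14), Tnni3 (-0.01) and Ttn (-0.07) overlapped. Dcn was at 119 ± 8.94 FPKM in WT and 82.4 ± 5.03 in Mc4r KO (SD, n = 3 each), and of the 5 fibroblast markers Lum (log2 fold change -0.57) and Pdgfra (-0.37) were also lower in every Mc4r KO library. Col3a1 (-0.33) and Col1a1 (0.44) overlapped. The erythrocyte list, led by Hbb-bs, summed to 4497, 859 and 6344 FPKM in WT and 1651, 663 and 620 in Mc4r KO, with WT replicate 3 the highest. The sums of the endothelial (led by Cdh5), macrophage (C1qa), Schwann cell and skeletal muscle lists (Ckm, also a gene of heart muscle) overlapped between the groups, but some of their genes did not. Csf1r, Cd68 and Mrc1, 3 of the 5 macrophage markers, were lower in all Mc4r KO libraries (log2 fold changes -0.37, -0.42 and -0.40), while C1qa (0.63) and Adgre1 (-0.03) overlapped. The endothelial marker Tie1 was higher in all Mc4r KO libraries (0.42), while Pecam1 (0.18), Kdr (0.03), Cdh5 (-0.07) and Emcn (-0.32) overlapped. Csf1r, Cd68, Mrc1 and Tie1 were named after their values were seen, and their adjusted p in limma was 0.0744 or more. Beside these marker genes, the groups did not overlap for 14.1% of all genes tested in the higher direction and 12.4% in the lower. The part of these differences in the levels of Srebf1, Srebf2 and Insig1 was not tested.

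The other genes of the pathway were read from 5 lists, with 70 genes in all including the 8, of which 65 were tested. No gene of these lists passed the threshold in limma. At an unadjusted p under 0.05, 9 were higher and 5 lower in Mc4r KO, beside 12% and 8.83% of all genes tested. The groups did not overlap for 9 in the higher and 8 in the lower direction, beside 14.1% and 12.4%. The genes left untested for low values included Fdps, Scd3, Npc1l1 and Soat2. Fdps, farnesyl diphosphate synthase, had between 0 and 4 reads in each library, and 26.2% of its words of 50 bases were shared with 8 other genes, whose reads may not be told apart from its own.

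**Figure D3:**
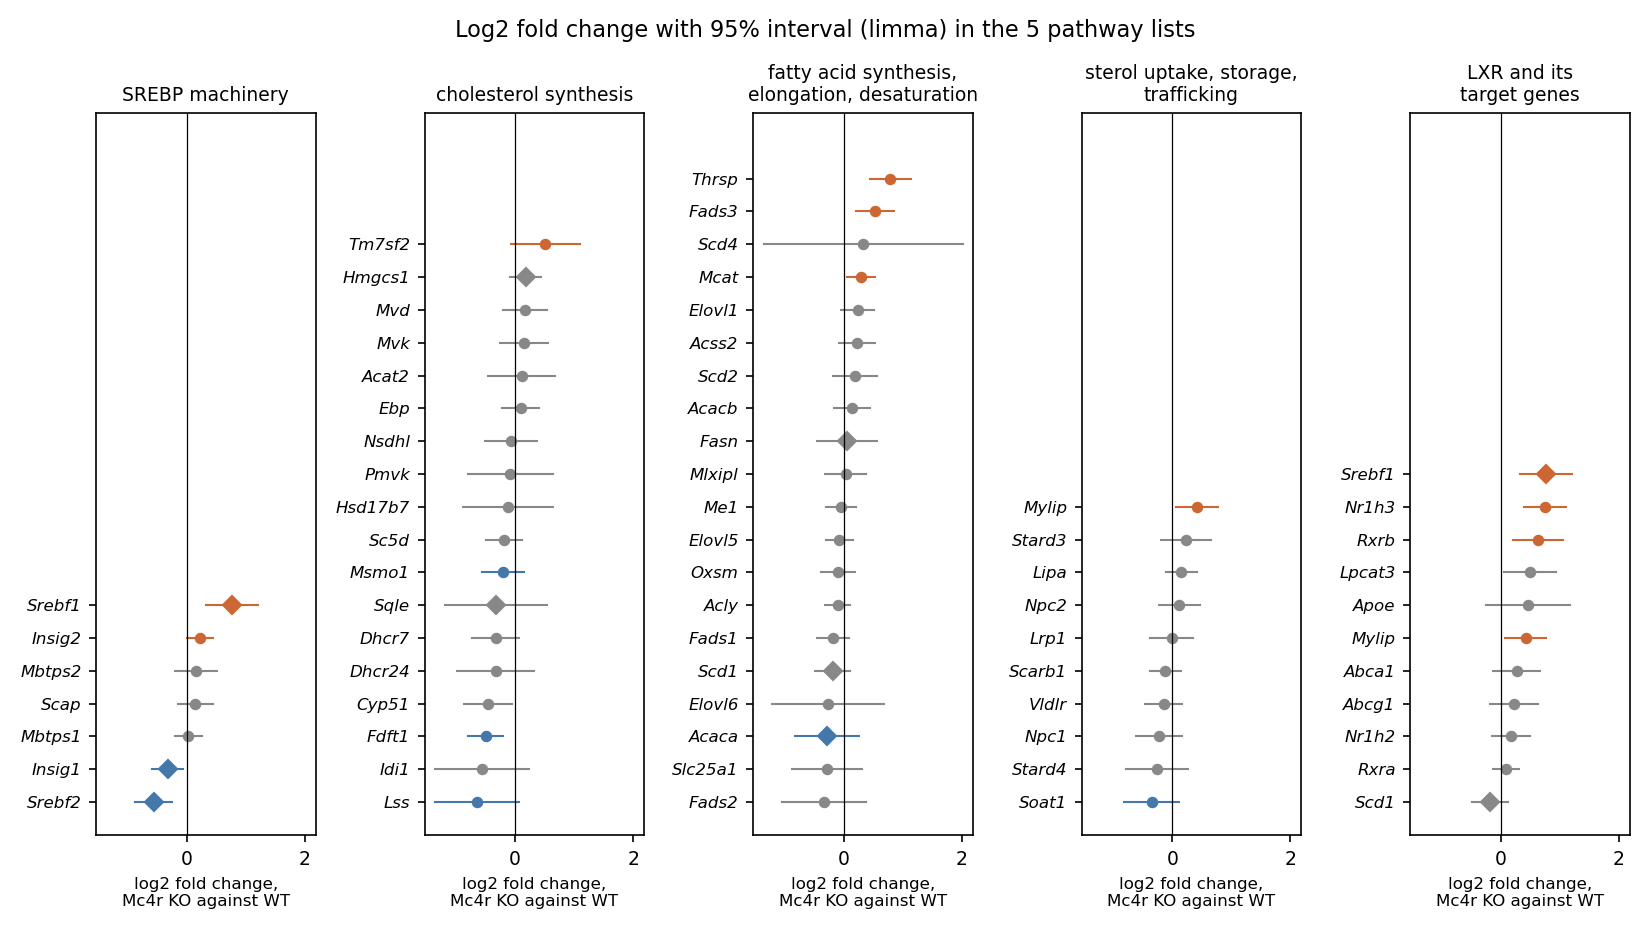
Log2 fold change of Mc4r KO against WT (x axis) with its 95% interval from limma for the genes of the 5 pathway lists that were tested and are reported here (y axis, ordered by fold change). Diamonds are the 8 genes, circles the other list genes; orange and blue mark genes whose groups did not overlap, higher and lower in Mc4r KO, and grey marks overlap. The LXR list lay mostly to the right of 0, with a median of 0.42, and the cholesterol synthesis list mostly to the left, with a median of -0.12.

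In the list of the sensing, escort and cleavage machinery, 7 of 7 genes were tested, and their median log2 fold change was 0.15. Srebf1 and Insig2 were higher and Srebf2 and Insig1 lower at an unadjusted p under 0.05, beside 12% and 8.83% of all genes. Mbtps2, one of the proteases of the Golgi, was at 1.31, 1.14 and 1.12 FPKM in WT and 1.46, 1.19 and 1.36 FPKM in Mc4r KO, and the groups overlapped (log2 fold change 0.15, and 0.09 without Mc4r KO replicate 1). Scap and the protease gene Mbtps1 also overlapped.

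Of 20 genes of cholesterol synthesis 19 were tested, 13 with a negative and 6 with a positive log2 fold change, and the median was -0.12 beside -0.01 for all genes. At an unadjusted p under 0.05, 2 of the 19 were lower (Fdft1 and Cyp51), beside 8.83% of all genes, and none was higher, beside 12%. Fdft1, squalene synthase, was at 10.5, 12.3 and 9.17 FPKM in WT and 7.59, 7.91 and 6.93 FPKM in Mc4r KO. Its groups did not overlap, and its log2 fold change was -0.50 (SE 0.13, adjusted p = 0.105 in limma). Its product is the substrate of Sqle.

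Cyp51, the sterol demethylase, was at 3.66, 3.09 and 2.57 FPKM in WT and 1.98, 2.06 and 2.64 FPKM in Mc4r KO, where Mc4r KO replicate 3 reached the WT range (log2 fold change -0.46, SE 0.17, adjusted p = 0.201 in limma). Dhcr7, of the last steps, had a log2 fold change of -0.33, and the kinase Mvk and decarboxylase Mvd of the mevalonate steps had 0.15 and 0.17, and the groups overlapped for each of these 3. Leaving out 1 library gave 0.02 (without WT replicate 1) to 0.29 for Mvk and 0.06 (without WT replicate 2) to 0.27 for Mvd.

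Of 21 genes of fatty acid synthesis, elongation and desaturation 20 were tested, 10 in each direction, with a median log2 fold change of -0.01. At an unadjusted p under 0.05, 3 of the 20 were higher (Thrsp, Fads3 and Mcat), beside 12% of all genes, and none was lower, beside 8.83%. Thrsp, a nuclear protein linked to lipid synthesis, was at 9.43, 13.1 and 8.88 FPKM in WT and 17.6, 17.9 and 18.3 FPKM in Mc4r KO. The groups were far apart, and the log2 fold change was 0.79 (SE 0.15, adjusted p = 0.0663 in limma). It passed the threshold when genes were filtered at 1 FPKM (1.3% of all genes called) or at 10 reads on average (1.27%), among protein-coding genes alone (1.51%) and in limma voom (1.76%). It did not pass in the other alternative settings. Over all 20 its log2 fold change ranged from 0.60 to 0.96, and its adjusted p in limma from 0.015 to 0.227.

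Fads3, a member of the fatty acid desaturase family, was at 17.4, 19.0 and 13.9 FPKM in WT and 21.4, 26.5 and 24.4 FPKM in Mc4r KO, without overlap (log2 fold change 0.53, SE 0.14, adjusted p = 0.108 in limma). Fads2 and the citrate carrier gene Slc25a1 had log2 fold changes of -0.34 and -0.29, with overlapping groups, and both were at -0.07 without WT replicate 3. Over the fits that left out 1 library they ranged from -0.65 to -0.07 and from -0.48 to -0.07. Scd4 was at 1.32, 3.86 and 2.43 FPKM in WT and 1.27, 2.06 and 9.50 FPKM in Mc4r KO, so that its log2 fold change of 0.33 (SE 0.72) rested on single libraries and was -0.49 without Mc4r KO replicate 3 and 0.91 without Mc4r KO replicate 1.

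Of 14 genes of sterol uptake, storage and trafficking 11 were tested, and the median log2 fold change was -0.12. At an unadjusted p under 0.05, 1 of the 11 was higher (Mylip) and 1 was lower, beside 12% and 8.83% of all genes. Mylip, which encodes a ubiquitin ligase that limits the uptake of lipoproteins, was at 8.14, 10.3 and 9.83 FPKM in WT and 13.2, 10.4 and 14.5 FPKM in Mc4r KO (log2 fold change 0.42, SE 0.15, adjusted p = 0.179 in limma). Its groups did not overlap.

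The other genes of this list described here overlapped between the groups. Their log2 fold changes were -0.22 for Npc1 and 0.16 for Lipa, which act in the lysosome, -0.26 for Stard4 and 0.23 for Stard3, which carry sterols, and -0.15 for Vldlr, the receptor for very low-density lipoprotein. Each of these values depended on single libraries. Over the fits that left out 1 library they ranged from -0.36 to -0.13 for Npc1, from 0.05 to 0.21 for Lipa, from -0.41 to -0.01 for Stard4, from 0.06 to 0.39 for Stard3 and from -0.25 to -0.05 for Vldlr. With quantile normalization, Vldlr was at -0.31 and Lipa at 0.05.

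The list of the liver X receptors and their target genes had the highest median of the 5, 0.42, with 11 of 11 genes tested and 10 of them positive. At an unadjusted p under 0.05, 5 were higher (Nr1h3, Srebf1, Rxrb, Mylip and Lpcat3), where 12% of all genes were higher, and none was lower. The groups did not overlap for 4 in the higher direction, beside 14.1% of all genes. Nr1h3, which encodes LXR alpha, was at 4.43, 4.76 and 4.76 FPKM in WT and 6.22, 8.64 and 9.07 FPKM in Mc4r KO. The WT libraries were close together and all lay under the Mc4r KO libraries (log2 fold change 0.75, SE 0.15, adjusted p = 0.0756 in limma).

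Rxrb, a partner receptor, was at 7.48, 6.93 and 11.1 FPKM in WT and 12.0, 13.9 and 12.9 FPKM in Mc4r KO, with WT replicate 3 nearest to the Mc4r KO libraries (log2 fold change 0.63, SE 0.18, adjusted p = 0.124 in limma). Without that library Nr1h3 and Rxrb passed the threshold together with Srebf1, in a fit that called 4.04% of all genes against 0.46% with all 6 libraries. Over the 20 alternative settings the adjusted p in limma ranged from 0.0338 to 0.26 for Nr1h3 and from 0.00978 to 0.329 for Rxrb. Srebf1, Mylip and Scd1 stood in 2 lists each, and Scd1 was the single gene of this list with a negative value.

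For each of the 8 genes, the list genes with the most similar pattern over the 6 libraries were found by the root mean square difference of their log2 values, each taken from its own mean. The points share libraries, depth and scaling. The group means were not removed, so genes with a similar difference between the groups come out as alike. Srebf1 was most like Rxrb (0.15) and Nr1h3 (0.19), beside its own SD of 0.49 across libraries. Srebf2 was most like Dhcr7 (0.18) and Msmo1 (0.20), with an SD of 0.34, and Insig1 most like Fdft1 (0.12), with an SD of 0.20.

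Among the enzymes, Hmgcs1 was most like Insig2 (0.05) and Elovl1 (0.11), Sqle most like Dhcr7 (0.24) and Npc1 (0.26), and Fasn most like Acacb and Abca1 (0.15 each). Scd1 was most like Npc1 (0.08) and Fads1 (0.12), and Acaca most like Insig1 (0.19). The SD across libraries was 0.14 for Hmgcs1, 0.43 for Sqle, 0.28 for Fasn, 0.17 for Scd1 and 0.26 for Acaca. The candidates, 55 or 56 for each, had a mean of 1 FPKM or more.

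The direction of Srebf1, Srebf2 and Insig1 was the same under all 20 alternative settings of the processing, of which 7 leave the log2 fold change as it is and could not turn it. FPKM without scaling could hardly change it either, since the scaling factors were equal in all libraries. The log2 fold change ranged from 0.57 to 0.94 for Srebf1, from -0.75 to -0.44 for Srebf2 and from -0.51 to -0.25 for Insig1. The lowest adjusted p of Insig1 in limma was 0.0518, without WT replicate 3, and the highest was 0.401, without Mc4r KO replicate 2.

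**Figure D4:**
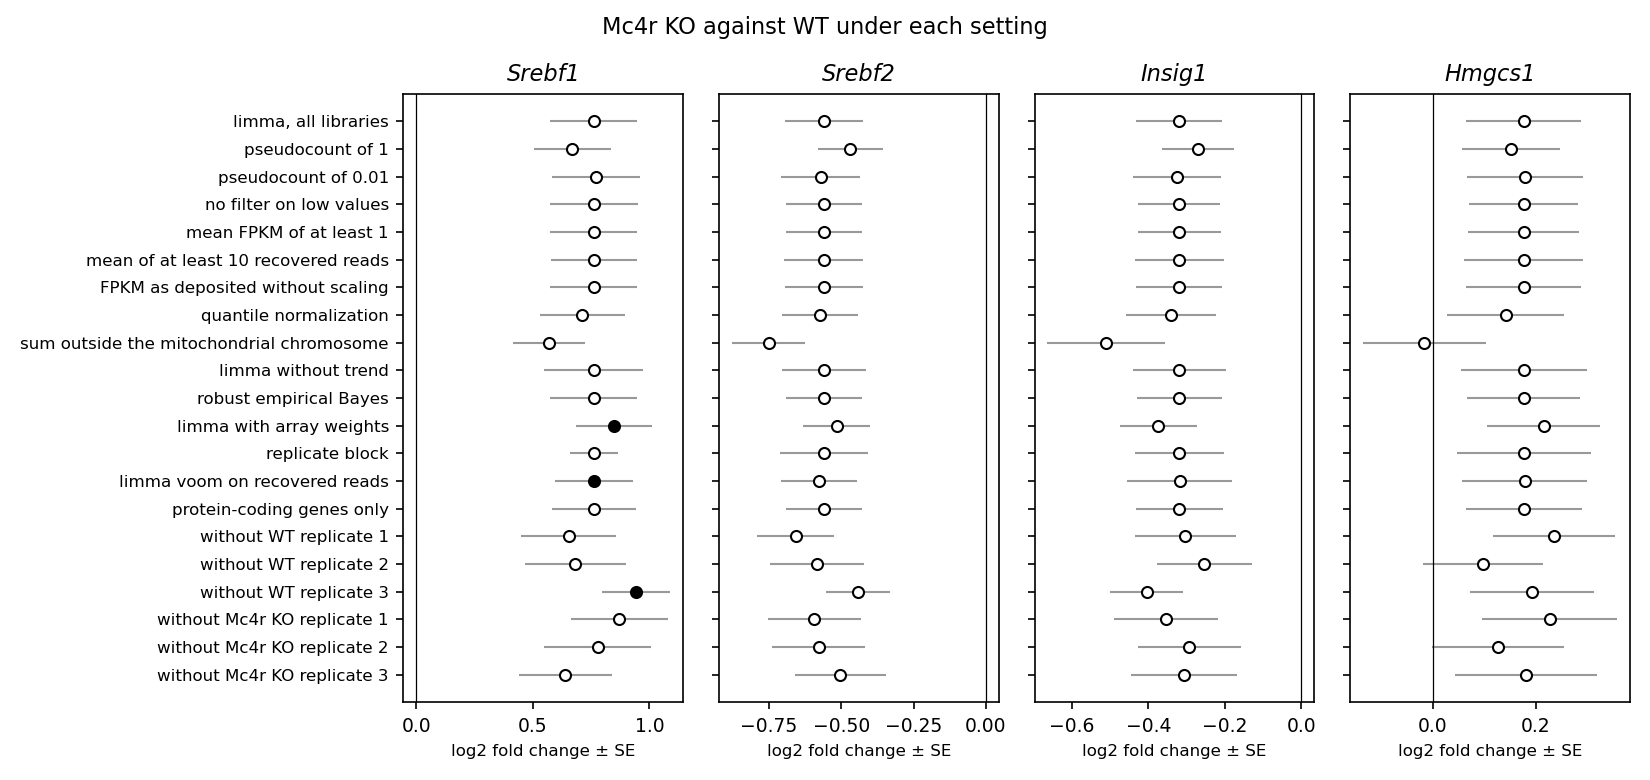
Log2 fold change of Mc4r KO against WT ± SE (x axes, each with its own scale) for Srebf1, Srebf2, Insig1 and Hmgcs1 under each setting of the processing (y axis). Filled points passed the threshold and open points did not. Srebf1 was filled in 3 settings, and scaling to the non-mitochondrial sum moved all 4 genes to the left together with the median of all genes.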

How the data were processed

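RNA of 3 WT and 3 Mc4r KO hearts was sequenced after poly(A) selection with the NEBNext Ultra kit. Per the submitters' processing notes, CASAVA, HISAT2 (2.0.5) and the mm10 build were used, and the study's methods name featureCounts for counting. The annotation release and strand setting are not given in the sources used here. The authors deposited FPKM per gene and library. Multiplied by gene length and divided by the worth of 1 read in each library, 100% of the values were whole (tolerance 0.01 reads), which gave the reads per gene. The worth of 1 read times the reads on genes differed by up to 1.11 times between libraries, so the FPKM carry a scaling other than to these reads. Intervals and floors from reads cover counting error only.

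FPKM were scaled by median-of-ratios factors, which were equal in all libraries, and tested with limma 3.58.1 in R 4.3.3 on log2(FPKM + 0.1) with an empirical Bayes trend and no covariate. Fold changes on this scale understate those of weak genes. P-values are two-sided, with Benjamini-Hochberg adjustment over 18035 genes. Calls required an adjusted p under 0.05 together with an absolute log2 fold change over 0.75. The 8 genes, the lists and the tests were chosen with earlier results of these data known. From the lists the text names the 8 genes, any gene past the threshold, and per list the 3 largest positive and 3 largest negative log2 fold changes among genes at 1 FPKM or more. It also names the most abundant marker of each cell type, every adipocyte marker and the 2 list genes most like each of the 8. Results for some single genes are not reported here. Genes outside this rule were named after their values were seen. Of the identifiers, 99.8% were found in GENCODE M21, in which shared words of 50 bases and overlapping exons were searched.

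The fit was tested on simulated reads with 200 changed genes. The first simulation (changed genes with at least 10 reads on average, dispersion 0.02 plus 0.5 over the mean) missed the limits set for it, which were recovery of over 80% of 4-fold changes and under 20 false calls. It recovered 44% of 2-fold and 80% of 4-fold changes among 17935 genes tested, and 24 calls (16.2% of all) were false. An easier one was then added without changing the fit (at least 50 reads, 0.1 over the mean). It recovered 64% and 98% among 17951 genes, with 13 false calls (7.4%). In both, the false share was above the nominal 5%, so adjusted p-values may be too small. Alternatives changed the pseudocount, the filter, the scaling, the empirical Bayes step, weights, block, test, gene set and the libraries fitted. Figures were drawn with Python 3.11.15, matplotlib 3.10.9 and pandas 2.3.3.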

Additional observations from a re-analysis of the deposited data

How the results depend on the processing

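The 83 calls across all genes (57 higher) varied with the setting. There were 44 with a pseudocount of 1, 22 with no filter, 147 at a mean FPKM of at least 1, 180 at 10 reads on average, 49 with quantile normalization, 21 without trend, 436 with array weights, 317 with limma voom and 204 among protein-coding genes. With scaling to the non-mitochondrial sum there were 41, of which 39.0% were higher in Mc4r KO against 68.7%, and the median of all genes moved from -0.01 to -0.19. Leaving out 1 library gave 7 to 726 calls: 7, 9 and 726 without WT replicates 1, 2 and 3, and 9, 11 and 14 without Mc4r KO replicates 1, 2 and 3. Without the limit on the fold change there were 105 calls and none was among the 8 genes.

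Of the 8 genes, 1 was called with array weights, 1 in limma voom and 1 without WT replicate 3, where the range over left-out libraries was 0 to 1. Each time it was Srebf1, with log2 fold changes of 0.85, 0.76 and 0.94 (0.64 to 0.94 over left-out libraries). Of the pathway lists, 1 gene was called at a mean FPKM of at least 1, at 10 reads and among protein-coding genes (Thrsp each time), 1 with array weights (Srebf1), 3 in limma voom (Nr1h3, Srebf1 and Thrsp) and 3 without WT replicate 3 (Nr1h3, Rxrb and Srebf1; 0 to 3 over left-out libraries).

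Signs turned with scaling to the non-mitochondrial sum for Hmgcs1 (-0.016), Fasn (-0.14), Mbtps2 (-0.028), Mvk (-0.041), Mvd (-0.017) and Lipa (-0.037). That scaling moved all genes together, and relative to the median of all genes none of these 6 turned. Fasn was -0.04 without WT replicate 1 and -0.16 without Mc4r KO replicate 3 (-0.16 to 0.19 over left-out libraries), and Scd4 was -0.06 and -0.49 without them (-0.49 to 0.91). The causes of the turns without a library were not tested.

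With the replicate number as a block, 11 genes were called and none of the 8. Deviations of WT and Mc4r KO libraries with the same number correlated at -0.14, 0.01 and -0.08 over 11297 genes, so the numbers were not taken as pairs, and no library correlated best with its own number. Planned count tests on the recovered reads with edgeR and DESeq2 were not run, and limma voom was the test run on these reads. Sqle rested on 14 to 40 reads per library.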
